A study of Mus musculus with 12 samples.

Results

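Among the 32622 genes measured in each library of mouse white fat, 7 genes of Schwann cells and myelin were followed: Sox10, Cdh19, Prx, Mag, Mbp, Pmp22 and S100b. Schwann cells are the glia of peripheral nerves. The 7 genes were chosen from values of these same libraries, so their levels and differences are given as a description, with no test. RNA-seq libraries came from the subcutaneous pad (scWAT) and the epididymal pad (epWAT) of 6 mice, 3 lacking C2orf74 (KO) and 3 wild type (WT). All 6 were fed a high-fat diet for 12 weeks from the age of 8 weeks. The 4 groups, each of 3 libraries, were KO scWAT, WT scWAT, KO epWAT and WT epWAT. The titles carry the same codes for both pads, so each code was taken as a mouse that gave both. The KO mice were C7, C34 and C695 and the WT mice C75, C85 and C99. Neither the knockout allele nor the strain is stated in the labels.

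As background, nerves that run through fat carry axons wrapped by Schwann cells, of which some build a myelin sheath and others only ensheathe thin axons. Sox10 is the transcription factor that keeps cells in the Schwann lineage, and together with Egr2 it drives the myelin genes. Compact myelin is held together by proteins that include Mbp and Pmp22. Several of these genes are also used outside nerves: Pmp22 is broadly expressed in connective tissue, adipocytes make S100b, and other transcripts of the Mbp gene occur in blood cells.

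The sequences around the transcription starts of Prx, Mag and S100b are shown because Prx had the pad pattern of Sox10 in both genotypes, Mag did not in WT mice, and S100b varied differently within groups. RefSeq promoter windows (GRCm38.p6, 250 bases before to 50 bases after a start) were matched for 4 of the 7 genes. Capitals mark matches, on either strand, to the letters ACAANG, a core that SOX factors bind, or GTGGGNG, a core that EGR factors bind.
Prx, chr7:27499074-27499373, plus strand: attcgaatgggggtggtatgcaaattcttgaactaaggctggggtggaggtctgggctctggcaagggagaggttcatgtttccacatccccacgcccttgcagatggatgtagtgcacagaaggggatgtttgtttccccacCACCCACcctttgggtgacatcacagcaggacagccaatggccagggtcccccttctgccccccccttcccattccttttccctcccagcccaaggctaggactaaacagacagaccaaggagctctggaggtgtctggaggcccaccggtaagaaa
Mag, chr7:30914814-30915113, minus strand: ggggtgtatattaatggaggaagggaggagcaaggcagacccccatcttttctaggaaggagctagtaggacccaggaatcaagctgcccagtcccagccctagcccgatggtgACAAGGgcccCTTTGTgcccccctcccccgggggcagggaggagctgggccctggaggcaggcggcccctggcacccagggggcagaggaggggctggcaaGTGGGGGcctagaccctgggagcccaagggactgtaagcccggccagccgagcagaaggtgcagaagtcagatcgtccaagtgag
S100b, chr10:76253586-76253885, plus strand: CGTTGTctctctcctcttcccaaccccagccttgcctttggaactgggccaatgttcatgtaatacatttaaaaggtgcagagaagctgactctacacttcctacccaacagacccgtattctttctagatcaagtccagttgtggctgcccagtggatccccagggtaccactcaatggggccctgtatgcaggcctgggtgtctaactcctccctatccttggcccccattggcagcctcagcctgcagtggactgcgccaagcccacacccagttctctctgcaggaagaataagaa
The Prx window held 1 EGR match, on its minus strand at bases 144 to 150, and no SOX match. This first of 3 Mag windows held SOX matches at bases 115 to 120 and 125 to 130 and an EGR match at bases 216 to 222. The S100b window held 1 SOX match at bases 1 to 6, and the 4 windows of Pmp22 held neither. No match overlapped another. Of all 32851 windows, which belong to 27025 genes, 41.2% held the SOX letters and 31.6% the EGR letters, so that a match is common and is given as a description.

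Levels are in FPKM, reads scaled to transcript length and library depth, a unit in which genes can be set side by side. Recovered depth was 15011093 to 18311563 reads per library. The mouse gene taken to correspond to C2orf74, 1700093K21Rik, had 2, 0 and 0 reads in KO scWAT against 7, 10 and 3 reads in WT scWAT, and 1, 0 and 0 reads in KO epWAT against 0, 5 and 2 reads in WT epWAT. These counts are too low to check each label, and which part of the gene was removed was not given. Mature adipocyte markers were abundant in every library, at 6243 to 15620 FPKM summed over 9 genes. Markers of other tissues varied between libraries, and 2 libraries stood apart. KO epWAT C7 held 332 FPKM of summed epididymis and germ cell markers, against at most 8.56 FPKM in any other library. KO scWAT C695 held 207 FPKM of summed lymphocyte markers, against at most 11.9 FPKM elsewhere. Results are therefore also given without these 2 libraries. Skeletal muscle markers, summed over 8 genes, ranged from 10.6 FPKM in KO scWAT C7 to 300.4 FPKM in KO scWAT C34 among scWAT libraries and from 12.7 to 59.4 FPKM in epWAT. KO scWAT C34 was also the highest library in Sox10, Cdh19 and Prx, and the part of muscle in these levels was not tested.

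The lineage factor Sox10 (ENSMUSG00000033006, chromosome 15, 79154908 to 79165240, minus strand in GRCm38) was found mainly in subcutaneous fat. Its level was 0.832, 1.41 and 0.844 FPKM in KO scWAT C7, C34 and C695, against 0.911, 0.322 and 0.186 FPKM in WT scWAT C75, C85 and C99. In epWAT it was at 0.0668, 0.128 and 0.0491 FPKM in KO mice C7, C34 and C695, against 0.0208 FPKM in WT C75, with WT C85 and C99 listed at 0. Every subcutaneous library lay above every epididymal one, while the genotypes overlapped in scWAT. On the log2(FPKM + 1) scale, which understates the change of low genes, scWAT minus epWAT was 0.90 ± 0.14 in KO mice and 0.52 ± 0.17 in WT mice (limma standard error, n = 3 libraries per group). The WT value was 0.31 without WT scWAT C75, and the KO value 0.77 without KO scWAT C34, each the highest of its group. The KO epWAT libraries did not overlap the WT epWAT libraries, but both groups lay near the level of 3 reads, 0.0537 to 0.0655 FPKM per library for a gene of this length. In bulk tissue, fewer cells of a type and less RNA per cell cannot be told apart, for this gene and for those below.

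Cdh19 (ENSMUSG00000047216, chromosome 1, 110888326 to 110977584, minus strand), an adhesion molecule of the Schwann lineage, was also found mainly in subcutaneous fat. It was at 2.32, 2.83 and 2.21 FPKM in KO scWAT C7, C34 and C695, against 1.62, 1.38 and 1.04 FPKM in WT scWAT C75, C85 and C99. In epWAT it was at 0.127, 0.189 and 0.156 FPKM in the KO mice, against 0.0264, 0.106 and 0.141 FPKM in the WT mice. The 3 KO scWAT libraries lay above the 3 WT scWAT libraries, both lay above all of epWAT, and the genotypes overlapped in epWAT. Mean levels were 2.45 ± 0.331 FPKM in KO scWAT and 1.34 ± 0.291 FPKM in WT scWAT (SD, n = 3 each), a ratio of 1.82. The ratio of scWAT to epWAT means was 15.6 in KO mice and 14.7 in WT mice, with 33 reads in all of KO epWAT and 21 in all of WT epWAT behind the lower levels. On the log2 scale, KO minus WT in scWAT was 0.56 ± 0.13 and stayed between 0.46 and 0.88 over 12 alternative settings and left-out libraries.

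Prx (ENSMUSG00000053198, chromosome 7, 27499324 to 27520214, plus strand) encodes periaxin, which links the outer face of the myelinating Schwann cell to its surroundings. It was at 2.03, 3.81 and 2.12 FPKM in KO scWAT C7, C34 and C695, against 3.19, 1.65 and 0.776 FPKM in WT scWAT C75, C85 and C99. The epididymal values were 0.498, 0.518 and 0.263 FPKM in KO mice, against 0.566, 0.673 and 0.216 FPKM in WT mice. The pads did not overlap in either genotype, and the genotypes overlapped in both pads. The ratio of scWAT to epWAT means was 6.23 in KO mice and 3.86 in WT mice. KO minus WT in scWAT was 0.40 ± 0.34 on the log2 scale and rested on single libraries, being 0.10 without WT C99, 0.72 without WT C75 and 0.19 without KO C34. Prx shares 300 exon bases with Gm15541 on the opposite strand, and without a known strand setting reads of the pair cannot be told apart.

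Mag (ENSMUSG00000036634, chromosome 7, 30899176 to 30914873, minus strand), the myelin-associated glycoprotein at the inner, axon-facing side of the sheath, was low everywhere, and its pads overlapped in WT mice. It was at 0.292, 0.548 and 0.351 FPKM in KO scWAT C7, C34 and C695, against 0.713, 0.255 and 0.276 FPKM in WT scWAT C75, C85 and C99. In epWAT it was at 0.252, 0.199 and 0.180 FPKM in KO mice, against 0.624, 0.293 and 0.511 FPKM in WT mice. KO epWAT was below each of the other groups, with only its highest library close to the lowest WT scWAT library. These levels stand for 42 reads over the KO epWAT group and 83 to 104 reads over each other group. KO minus WT was -0.28 ± 0.10 in epWAT and -0.01 ± 0.15 in scWAT on the log2 scale.

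Mbp (ENSMUSG00000041607), the basic protein of the cytoplasmic face of compact myelin, combined a subcutaneous excess with a genotype difference in epididymal fat. It was at 11.5, 14.2 and 13.2 FPKM in KO scWAT C7, C34 and C695, against 17.1, 11.5 and 7.98 FPKM in WT scWAT C75, C85 and C99. In epWAT it was at 5.78, 5.70 and 5.77 FPKM in KO mice, against 8.90, 7.42 and 8.04 FPKM in WT mice. The KO epWAT libraries were nearly equal to each other and lay below every other library, whereas the genotypes overlapped in scWAT. KO epWAT averaged 5.75 ± 0.0455 FPKM and WT epWAT 8.12 ± 0.745 FPKM (SD, n = 3 each), a ratio of 0.708 and a log2 difference of -0.43 ± 0.08. That difference kept its sign over 12 alternatives, between -0.49 and -0.28, whose smallest size came with quantile normalization. The scWAT-to-epWAT ratio of means was 2.26 in KO mice and 1.5 in WT mice, where the groups overlapped. In scWAT, KO minus WT was 0.14 ± 0.25, with -0.11 without WT C99 and 0.40 without WT C75.

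Pmp22 (ENSMUSG00000018217, chromosome 11, 63128982 to 63159547, plus strand), a membrane protein of compact myelin, was the most abundant of the 7, with overlapping groups. It was at 95.7, 117 and 97.9 FPKM in KO scWAT C7, C34 and C695, against 108 FPKM in WT scWAT C75, 83.9 FPKM in C85 and 85.2 FPKM in C99. In epWAT it was at 90.2, 93.7 and 112 FPKM in KO mice, against 102, 93.8 and 92.9 FPKM in WT mice. All 4 groups overlapped, and no difference between genotypes or pads exceeded 0.17 on the log2 scale. Pmp22 made up 77.1% to 92.5% of the summed FPKM of the 7 genes, so a plain sum mainly follows Pmp22.

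S100b (ENSMUSG00000033208, chromosome 10, 76253853 to 76261159, plus strand), the calcium-binding protein, was higher in subcutaneous fat of WT mice but ordered the libraries differently from Sox10. It was at 3.32, 3.05 and 9.10 FPKM in KO scWAT C7, C34 and C695, against 8.45, 5.59 and 9.85 FPKM in WT scWAT C75, C85 and C99. In epWAT it was at 1.51, 0.857 and 4.85 FPKM in KO mice, against 0.875, 1.34 and 1.44 FPKM in WT mice. Mouse C695 was the highest of its group in both pads, and in scWAT WT C99, lowest of the WT mice in Sox10 and Prx, was the highest. The pads did not overlap in WT mice, with a ratio of means of 6.53, and overlapped in KO mice. Single libraries set the genotype values. KO minus WT in scWAT was -0.64 ± 0.38, but -1.07 without KO C695, and in epWAT it was 0.45 ± 0.42, but -0.03 without KO C695 and 0.80 without KO C34. The KO difference between pads, 0.90 ± 0.53, was 0.34 without both KO scWAT C695 and KO epWAT C7, 0.48 without KO scWAT C695 alone, 0.55 without KO epWAT C34 and 1.38 without KO epWAT C695.

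**Figure D1:**
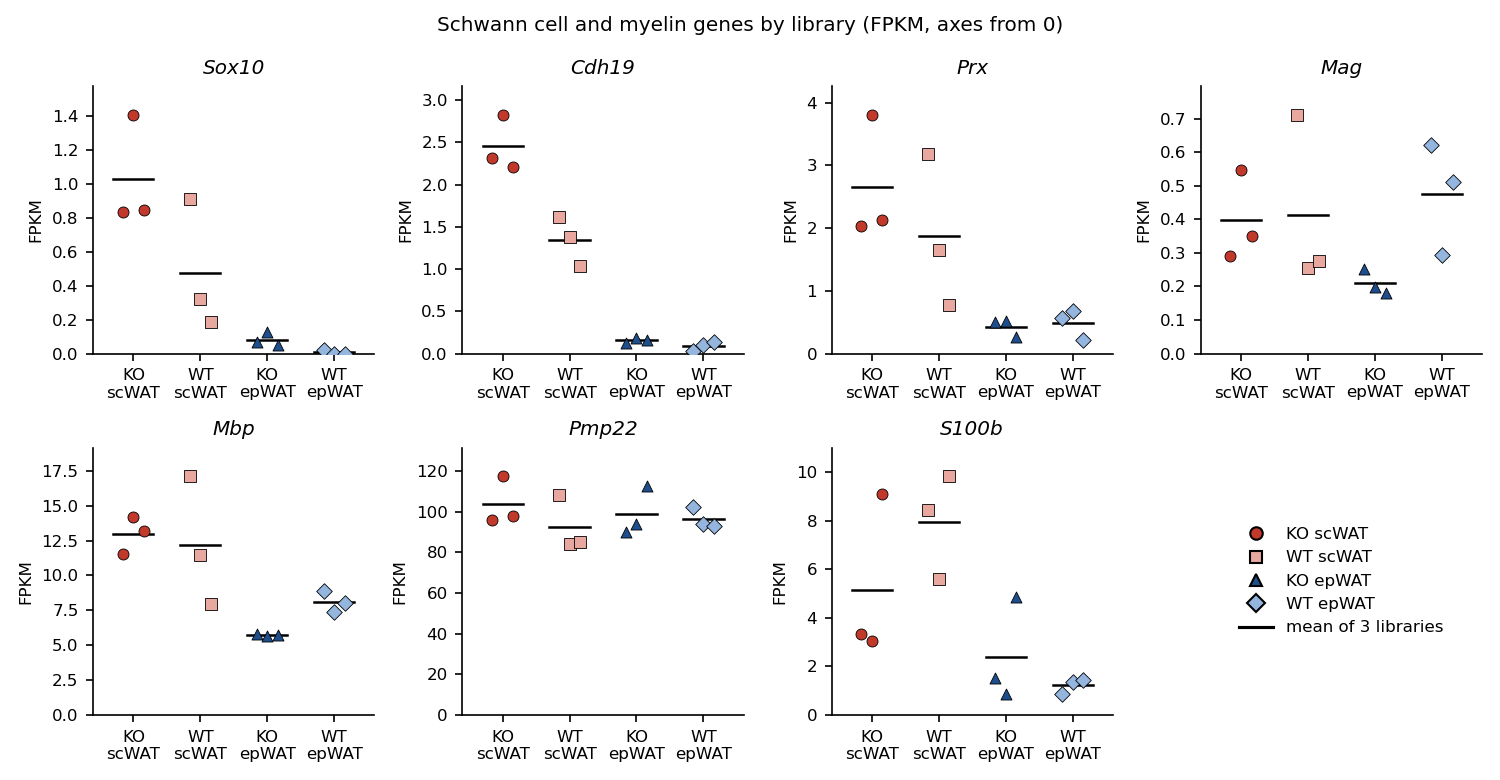
FPKM (y axes from 0) of the 7 genes in each of 12 libraries, by group, with bars at the mean of 3. Sox10, Cdh19 and Prx sit higher in both scWAT groups than in either epWAT group, the 3 KO epWAT points of Mbp lie between 5.70 and 5.78 FPKM, and Pmp22 shows overlapping groups.

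Ranked by mean level, the groups ran KO scWAT, WT scWAT, KO epWAT, WT epWAT for Sox10 and Cdh19. The order was KO scWAT, WT scWAT, WT epWAT, KO epWAT for Prx and Mbp. Neighbours in these orders that overlapped were both scWAT groups for Sox10, Prx and Mbp, both epWAT groups for Cdh19 and Prx, and WT scWAT with WT epWAT for Mbp. For S100b and Pmp22 each group overlapped its neighbour. Mag ran WT epWAT, WT scWAT, KO scWAT, KO epWAT, with a gap only before the last.

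Of the 7 genes, 4 passed the filter (at least 1 FPKM in at least 3 libraries of the fit) between pads in WT mice and 5 in KO mice. The threshold used for other genes, an adjusted p under 0.05 by limma, is not read for these genes. Without overlap, 4 of the 7 were higher in WT scWAT than in WT epWAT (Prx, S100b, Sox10 and Cdh19), beside 9.83% of genes that were higher and 17.2% that were lower. In KO mice 5 of the 7 were higher in scWAT (Mbp, Prx, Mag, Sox10 and Cdh19), beside 8.73% that were higher and 5.84% that were lower. Cdh19 in both genotypes and Prx in KO mice passed the filter through their scWAT libraries alone. Since the genes were chosen from these values, nothing is read from these counts.

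**Figure D2:**
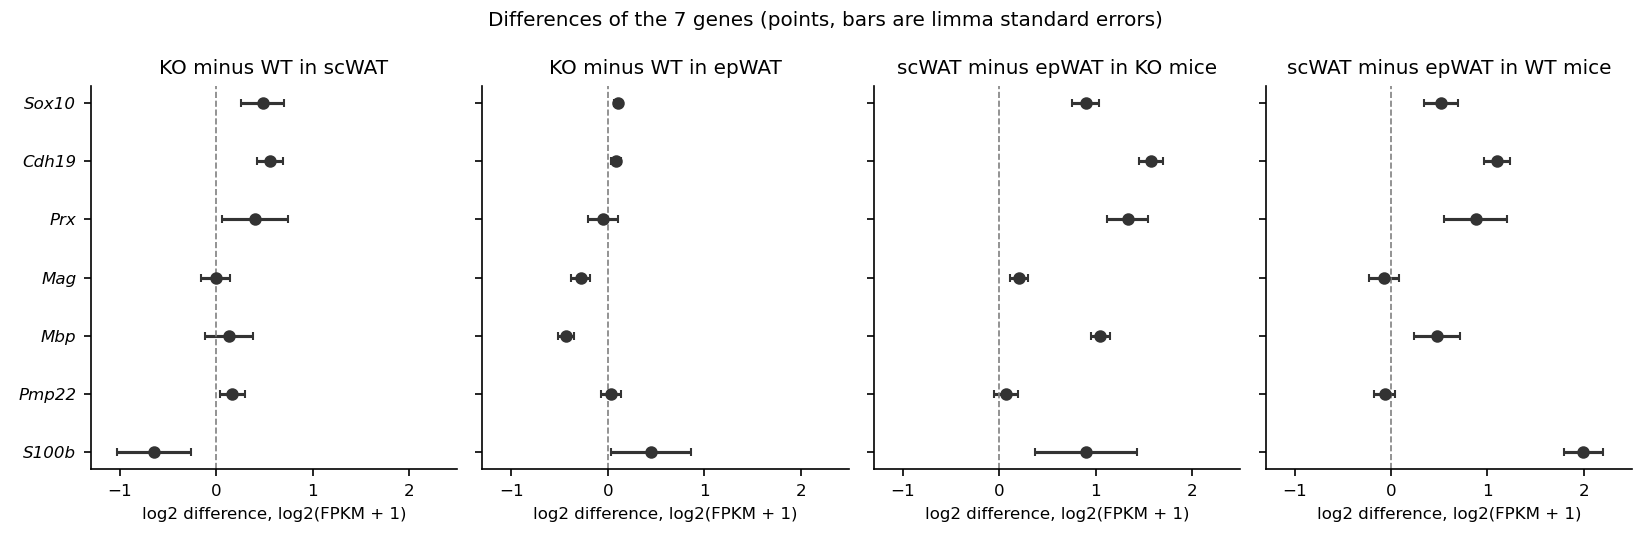
Differences of the 7 genes (x axis, log2(FPKM + 1); bars are limma standard errors) for KO minus WT in scWAT and epWAT and for scWAT minus epWAT in KO and WT mice. Cdh19 stands at 0.56 for KO minus WT in scWAT, Mbp at -0.43 in epWAT, and the pad differences reach 1.57 for Cdh19 in KO mice and 1.99 for S100b in WT mice.

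The other genes of the myelin sheath were taken from 7 lists of 55 further Schwann cell, myelin and glial ligand genes. Several of them were higher in scWAT without overlap in both genotypes but were low. In WT mice 19 of the 55 were higher and 6 lower without overlap, beside 9.83% and 17.2% of all genes. In KO mice 19 were higher and 2 lower, beside 8.73% and 5.84% of all genes. The share of all genes with 1 pattern in both genotypes was not counted. Mal, a proteolipid of the myelin membrane, was at 2.37, 3.49 and 1.90 FPKM in KO scWAT C7, C34 and C695, against 0.739, 0.166 and 0.384 FPKM in KO epWAT of the same mice, with 1.32 ± 0.22 and an adjusted p of 0.0740 by limma. In WT mice C75, C85 and C99 it was at 2.89, 1.24 and 0.647 FPKM in scWAT, against 0.0203, 0.102 and 0.177 FPKM in epWAT. The pads thus did not overlap in either genotype, and in WT scWAT C75 was high and C99 low. Drp2, which joins periaxin to the dystroglycan complex, was at 1.05, 1.71 and 1.04 FPKM in KO scWAT against 0.141, 0.0676 and 0.0623 FPKM in KO epWAT, with 1.04 ± 0.16 and an adjusted p of 0.0635 by limma and 0.0233 by limma-voom. Both genes passed the filter in KO mice through scWAT alone, and in WT mice neither passed it. Ncmap, a protein of non-compact myelin, was at 0.587, 2.06 and 1.08 FPKM in KO scWAT against 0.217, 0.0260 and 0.0299 FPKM in KO epWAT. Pmp2, which encodes the lipid-binding P2 protein of myelin, was at 0 in 10 of 12 libraries and at most 0.0844 FPKM, and Gjb1, the connexin of non-compact myelin, never exceeded 0.696 FPKM. Cnp, an enzyme of the sheath's cytoplasmic channels, was higher in scWAT without overlap in KO mice, at 11.3 FPKM on average in KO scWAT against 5.98 FPKM in KO epWAT (0.77 ± 0.22, adjusted p = 0.211 by limma). Its pads overlapped in WT mice, at 7.84, 7.52 and 6.95 FPKM in WT scWAT against 10.3, 7.80 and 7.55 FPKM in WT epWAT.

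**Figure D3:**
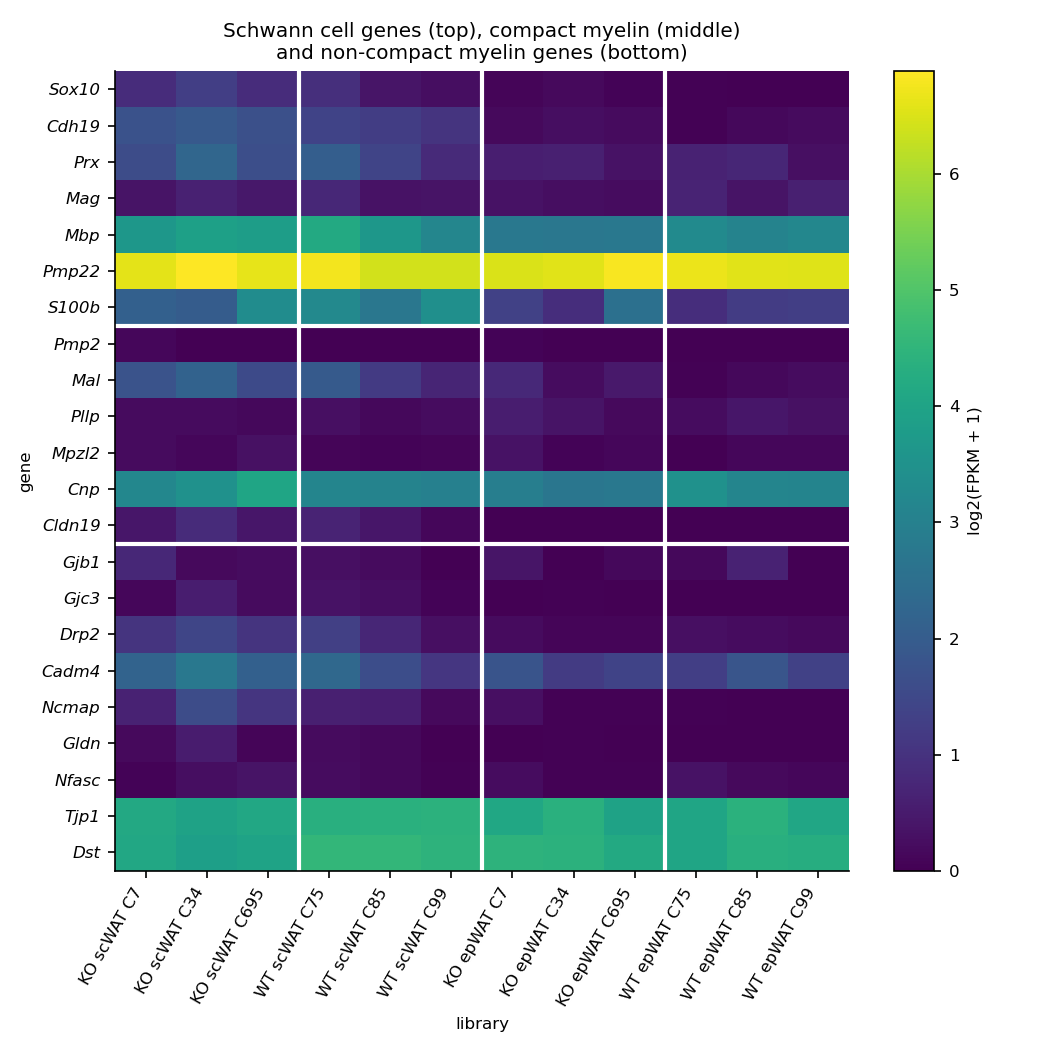
Colour gives log2(FPKM + 1) for the 7 genes (top block), 6 compact myelin genes (middle) and 9 non-compact myelin and contact genes (bottom), with 12 libraries across in the order KO scWAT, WT scWAT, KO epWAT, WT epWAT. Mal is at 0.647 to 3.49 FPKM in scWAT against 0.0203 to 0.739 FPKM in epWAT, while Pmp22 is bright in every column.

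Among all 55 further genes, 18 were tested between pads in KO mice and limma called none, beside 0.713% of all genes. At an unadjusted p under 0.05 there were 7, beside 1840 of 12623 genes, and 3 of these 7 (Mal, Drp2 and Ntf3) had passed the filter through scWAT alone. Limma-voom called Drp2 alone. Without the filter limma called none of 55, with 19 at an unadjusted p under 0.05, beside 0.151% of all genes called. The median difference of the 18 was 0.18, beside 0.06 over all genes tested. In WT mice 19 were tested, of which 3 were called higher in scWAT and 3 lower by limma, beside 22.4% of all genes called, with a median of -0.01 beside -0.04 over all genes. The higher ones were Art3, Scn7a and Ntf3. Art3, an ADP-ribosyltransferase family gene, was at 86.7, 78.7 and 88.2 FPKM in WT scWAT against 30.4, 36.5 and 38.2 FPKM in WT epWAT (1.25 ± 0.10, adjusted p = 0.00289 by limma). Scn7a, a sodium channel found in non-myelinating Schwann cells, was at 27.3, 30.8 and 31.9 FPKM in WT scWAT against 19.5, 20.4 and 24.7 FPKM in WT epWAT (0.46 ± 0.11, adjusted p = 0.0249 by limma). Both Art3 and Scn7a were far above Sox10, which was at most 1.41 FPKM in any library. Whether Schwann cells were their source was not tested. Ntf3, a neurotrophin, was at 1.44, 1.66 and 1.61 FPKM in WT scWAT against 0.428, 0.930 and 0.639 FPKM in WT epWAT (0.63 ± 0.14, adjusted p = 0.0206 by limma), and it passed the filter through scWAT alone.

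The 3 that were lower in WT scWAT were Egr2, Adgrg6 and Gas6. Egr2, the zinc finger factor of myelination that macrophages also use, was at 3.82, 1.45 and 1.64 FPKM in WT scWAT against 13.9, 7.47 and 8.07 FPKM in WT epWAT (-1.74 ± 0.32, adjusted p = 0.0137 by limma). Its direction was thus opposite to those of Sox10 and Prx. In KO mice Egr2 ranged from 0.943 to 8.28 FPKM in scWAT and from 0.608 to 9.69 FPKM in epWAT, with C695 lowest in both. Adgrg6, the adhesion receptor that starts myelination, was at 0.720, 0.711 and 0.622 FPKM in WT scWAT against 1.32, 1.18 and 1.16 FPKM in WT epWAT (adjusted p = 0.0310 by limma), and it passed the filter through epWAT alone. Gas6, a ligand of TAM receptors, was at 59.1, 47.1 and 49.4 FPKM in WT scWAT against 66.5, 85.04 and 75.4 FPKM in WT epWAT (adjusted p = 0.0241 by limma). Without the filter, the adjusted p of Scn7a, Ntf3, Adgrg6 and Gas6 lay between 0.0523 and 0.0593. Single libraries also ended calls by limma. Scn7a lost its call without WT epWAT C75 or C85 or WT scWAT C85 or C99 (adjusted p 0.0661 to 0.0877). Gas6 lost it without WT epWAT C85 or C99 or WT scWAT C85 or C99 (0.0545 to 0.0844), Adgrg6 without any 1 WT scWAT library (0.0589 to 0.0880), Ntf3 without WT epWAT C99 (0.0586) and Egr2 without WT scWAT C99 (0.0543). Without the filter, the calls in WT mice were 2 higher (Art3 and Gfra3) and 2 lower (Egr2 and Pou3f1), beside 7.17% of all genes. Macrophage markers, summed over 8 genes, were at 182 to 258 FPKM in WT scWAT against 725 to 1212 FPKM in WT epWAT, and their part in these results was not tested.

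A further set of Schwann cell genes was at or under 1.62 FPKM in every library, and few of them passed the filter. Erbb3, the neuregulin receptor of the lineage, was at 0.593, 1.04 and 0.580 FPKM in KO scWAT against 0.534, 0.263 and 0.262 FPKM in WT scWAT. Its pads overlapped in both genotypes, but in KO mice only through KO epWAT C7 at 1.62 FPKM, the other KO epWAT libraries being at 0.365 FPKM each. Ngfr, the neurotrophin receptor of immature and repair cells, stayed between 0.0336 and 0.482 FPKM. Gfap, an intermediate filament of non-myelinating cells, was at most 0.190 FPKM, and Ncam1 at most 0.279 FPKM. Gap43 was at most 0.852 FPKM, and L1cam ran from 0.481 to 1.61 FPKM. Of the enzymes of myelin lipids, Fa2h was at most 0.996 FPKM and Ugt8a at most 0.980 FPKM. Pou3f1, the factor of promyelinating cells, was at 0.0297 to 0.160 FPKM in scWAT and reached 0.762 FPKM in WT epWAT.

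Between genotypes in scWAT, none of the 20 further genes tested was called by limma, beside 0.317% of all genes. At an unadjusted p under 0.05 there were 2, beside 2148 of all 12614 genes. These were Tjp1 (-0.29) and Dst (-0.52), both lower in KO scWAT without overlap. With limma-voom none of 17 was called. The 20 had a median difference of 0.20 against 0.01 over all genes, and both tested genes of the compact myelin list, Mal and Cnp, were positive, with a median of 0.52. Cdh19 was the single gene of the 7 that was higher in KO scWAT without overlap, beside 7.98% of all genes higher and 7.73% lower, and of the 55 further genes 10 were higher and 4 lower. Without KO scWAT C695 none of the 20 was called, beside 1.15% of all genes. S100b then became lower without overlap and Cdh19 stayed higher, while of the 55 further genes 16 were higher and 6 lower. The share of all genes without overlap was not counted with that library left out. Muscle markers varied within these groups, at 10.6, 300.4 and 120 FPKM in KO C7, C34 and C695 against 94.1, 153 and 33.0 FPKM in WT C75, C85 and C99. Perineurial and endoneurial markers, summed over 9 genes, were at 25.2 to 56.7 FPKM in KO scWAT against 26.6 to 44.8 FPKM in WT scWAT. They were at 9.27 to 22.3 FPKM in KO epWAT against 14.1 to 17.5 FPKM in WT epWAT. Axon and sympathetic neuron markers, summed over 14 genes, were at 9.63 to 11.4 FPKM in KO scWAT against 13.7 to 19.3 FPKM in WT scWAT. By gene, 1 of the 14 was higher and 1 lower without overlap. In epWAT the sum was 36.4, 8.70 and 10.8 FPKM in KO C7, C34 and C695 against 12.9 to 14.9 FPKM in WT mice. The part of nerve content in these results was not tested.

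**Figure D4:**
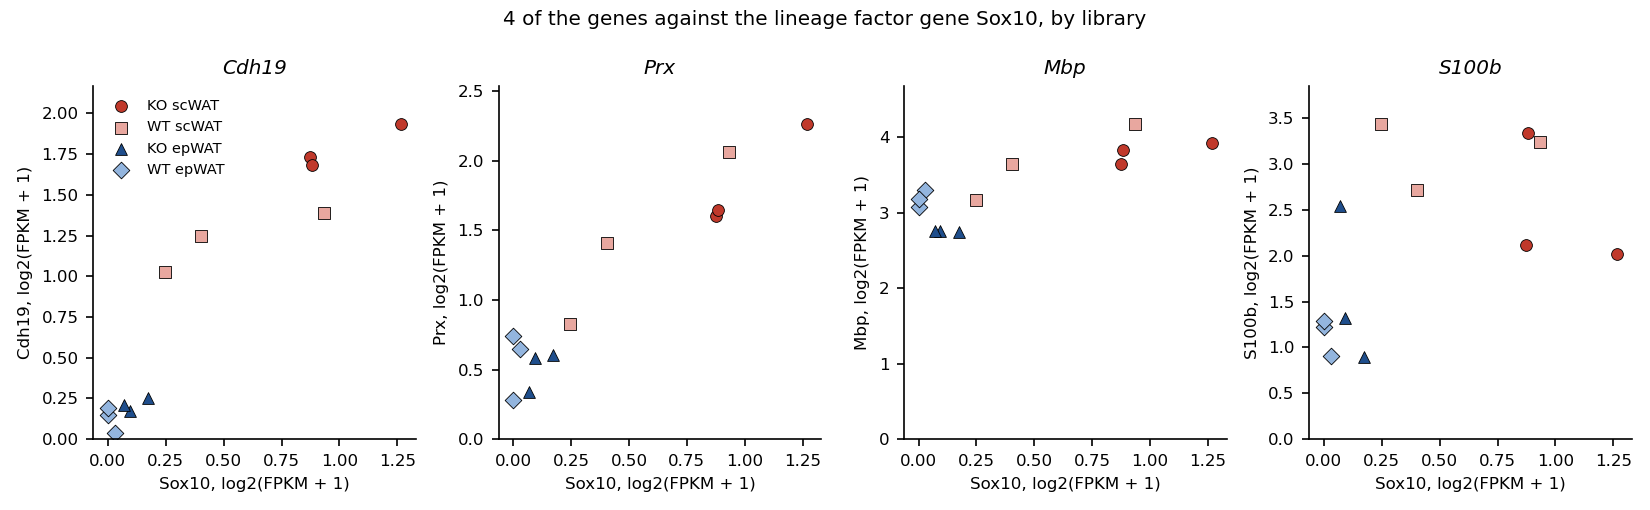
Each point is a library, with Sox10 on the x axis and Cdh19, Prx, Mbp or S100b on the y axis, all as log2(FPKM + 1). Cdh19 and Prx climb with Sox10 from the cluster of epWAT libraries to KO scWAT C34, and Mbp climbs to WT C75, whereas S100b in scWAT is highest in WT C99, the scWAT library with the lowest Sox10 at 0.186 FPKM.

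Between genotypes in epWAT, none of the 17 further genes tested was called, 6 of them at an unadjusted p under 0.05 (Adgrg6 and L1cam having passed the filter through WT epWAT alone), with 0.0% of all 12722 genes called by limma, 3795 of them at an unadjusted p under 0.05, and none by limma-voom. Their median was -0.03, beside -0.10 over all genes, a shift that was 0.02 with upper-quartile scaling. Mbp and Mag were lower in KO epWAT without overlap, beside 15.8% of all genes that were lower, and Sox10 was higher, beside 6.89% that were higher. The 55 further genes gave 7 higher and 6 lower. Cnp was at 6.66, 5.498 and 5.79 FPKM in KO epWAT against 10.3, 7.80 and 7.55 FPKM in WT epWAT (-0.44 ± 0.13, adjusted p = 0.0904 by limma). Nab2, a co-repressor of EGR factors named after its values were seen, was at 3.49, 2.85 and 2.17 FPKM in KO epWAT against 8.29, 5.63 and 5.04 FPKM in WT epWAT (-0.92 ± 0.20, adjusted p = 0.0675 by limma). Art3 ran the other way, at 63.3, 67.4 and 82.1 FPKM in KO epWAT against 30.4, 36.5 and 38.2 FPKM in WT epWAT (1.00 ± 0.13, adjusted p = 0.0553 by limma), and with all libraries it was called under quantile normalization (adjusted p = 0.0413) and with a filter of 5 FPKM (adjusted p = 0.0499).

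Leaving out KO epWAT C7 changed the epWAT calls. By limma 14.3% of all genes were then called, with Art3 (1.07, adjusted p = 0.0247) and Scn7a (0.76, adjusted p = 0.0254) higher and Nab2 (-1.04, adjusted p = 0.0348) lower among the 17. Cdh19 also became higher without overlap, and the 55 further genes gave 8 higher and 14 lower. The share of all genes without overlap was not counted for that choice. Macrophage markers were at 127 to 536 FPKM in KO epWAT against 725 to 1212 FPKM in WT epWAT, with 7 of 8 genes lower without overlap. Adipocyte markers summed to 10370 to 14600 FPKM in KO epWAT against 6243 to 8278 FPKM in WT epWAT, with 8 of 9 higher without overlap. Their part in the lower Mbp, Mag and Cnp, and in the higher Art3 and Scn7a, was not tested. Markers made by oligodendrocytes and not by Schwann cells summed to 1.02 FPKM in WT scWAT C75 and to at most 0.268 FPKM in any other library. WT scWAT C75 was also the highest library in Mbp (17.1 FPKM) and Mag (0.713 FPKM), and the part of such cells was not tested.

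**Figure D5:**
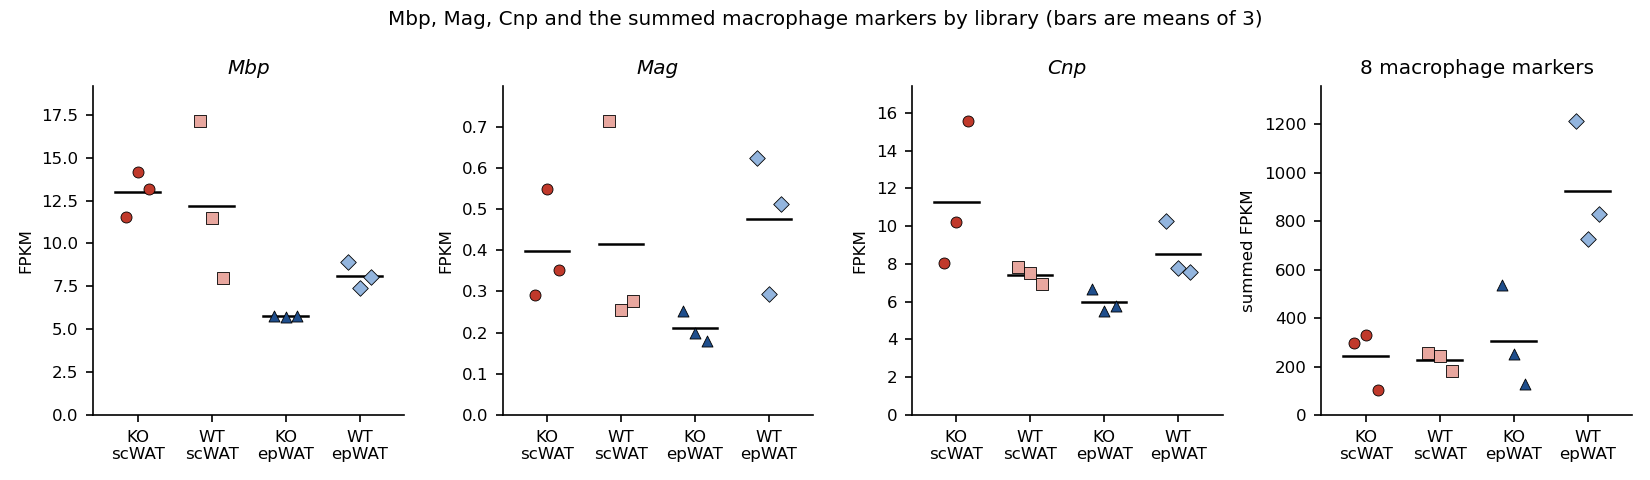
FPKM of Mbp, Mag and Cnp and the summed FPKM of 8 macrophage markers (y axes from 0) by library and group, with bars at the mean of 3. KO epWAT is below WT epWAT without overlap in all 4 panels, and the macrophage sum is 127 to 536 FPKM in KO epWAT against 725 to 1212 FPKM in WT epWAT.

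Whether the KO effect differed between pads (that in scWAT less that in epWAT) was tested for 21 of the further genes. Art3 was called (-1.07 ± 0.21, adjusted p = 0.0455 by limma), beside 1.03% of all genes, and no other further gene with these settings. It was at 91.3, 63.7 and 87.5 FPKM in KO scWAT against 86.7, 78.7 and 88.2 FPKM in WT scWAT, so that the genotypes overlapped there and not in epWAT. The call missed the threshold with the mouse as a block (adjusted p = 0.0633), without the filter (adjusted p = 0.0920) and without any single library (adjusted p 0.0744 to 0.118) except KO epWAT C7, KO scWAT C7 and KO scWAT C695, without which it held. Dst, a cytoskeletal linker gene named after its values were seen, missed the threshold (-0.64 ± 0.14, adjusted p = 0.0644 by limma) but was called with quantile normalization (adjusted p = 0.0423), a filter of 5 FPKM (0.0494) and upper-quartile scaling (0.0382). It was at 16.6, 13.8 and 14.8 FPKM in KO scWAT against 22.4, 22.6 and 21.1 FPKM in WT scWAT, and at 21.02, 20.4 and 17.1 FPKM in KO epWAT against 15.6, 19.2 and 18.8 FPKM in WT epWAT. The genotypes thus overlapped in epWAT and not in scWAT. The same 3 settings called it higher in WT scWAT than in WT epWAT (adjusted p 0.0292 to 0.0472 by limma, against 0.0576 without them). Art3 shares 133 exon bases with Cxcl10 on the opposite strand. Cnp was higher in all KO scWAT libraries, at 8.05, 10.2 and 15.6 FPKM against 7.84, 7.52 and 6.95 FPKM in WT scWAT, and its difference of effects was 0.94 ± 0.27 (adjusted p = 0.0899 by limma). Leaving out both KO epWAT C7 and KO scWAT C695, 11.2% of all genes were called, with Cnp (0.77, adjusted p = 0.0396), Gas6 (0.84, adjusted p = 0.0271) and Lgi4 (0.74, adjusted p = 0.0334) positive and Art3 (-1.22, adjusted p = 0.0196) negative. Between pads in KO mice that choice left 0.0505% of all genes called and none of 15 further genes tested.

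Within groups, the 7 genes did not vary as one set. As deviations from the 4 group means over 12 libraries, Mbp correlated with Sox10 at 0.88, Mbp with Prx at 0.84 and Prx with Sox10 at 0.92. The SD of Sox10 within groups was 0.30 in scWAT and 0.04 in epWAT on the log2 scale. Its correlations therefore rest mainly on the scWAT libraries. Mag correlated with Sox10 at 0.83 and Pmp22 with Sox10 at 0.75. S100b correlated with Sox10 at -0.25, with Prx at -0.36 and with Cdh19 at -0.31. These are descriptions of 12 libraries from 6 mice, with no test.

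Genes with the most similar pattern were ranked by Pearson r with the mean standardised level of the 7, over 12 libraries and 12766 genes. The first 10 were Ffar2 (0.948), Mterf4, Shox2, Mal (0.907), Rpl39l, Rsrc1, Gm2614, Zfp60, Elmod2 and Thy1 (0.872), of which Mal belongs to the lists. On deviations from group means they were Tada1 (0.962), Sema3c, Zfp60, Rpp30, Gm12941, Uchl1, Tfg, Gm22935, Gm44956 and Mal (0.837). The libraries fall into the 2 pads, so the first ranking largely follows the pad. For single genes the closest were Mal for Prx (0.935) and for Sox10 (0.959), Gm13111 for Cdh19 (0.985) and Pdcl3 for Mbp (0.921). Those of S100b were Wscd2 (0.947), the long-chain acyl-CoA synthetase gene Acsl1 (0.945) and Rora (0.941), none of them on a Schwann cell list. Marcks led for Mag (0.852) and Rpsa-ps2 for Pmp22 (0.855).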

How the data were processed

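RNA was extracted with Trizol and sequenced from standard Illumina libraries, per the labels' protocols. The deposited values are FPKM made by the authors, a unit read from the values. The aligner, counter and strand setting are not given in the sources used here. The submitters' processing notes name mm9, but exon lengths followed GENCODE M21 (GRCm38), which gave whole reads (within 0.01) for 92.2% of genes in all libraries; Mbp and Sox10 did not. That annotation held 32553 of the gene identifiers and lacked 69.

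The test was limma-trend on log2(FPKM + 1), over genes reaching 1 FPKM in 3 or more of a comparison's libraries, with a threshold of 0.05 on Benjamini-Hochberg adjusted p. It was tested on simulated data. The members and lists were chosen with earlier results of these data known. Named genes were the 7, other textbook Schwann cell genes fixed by name (some are not reported here), further list genes that passed a test, and the most similar genes. Nab2, Gfra3, Lgi4, Dst and Tjp1 were named after their values were seen. Alternatives were other filters, a pseudocount of 0.1, other scalings, left-out libraries and, added after seeing the data, limma-voom on recovered reads.

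Titles give the same codes for both pads, so libraries with the same code were taken to come from 1 animal. Deviations from group means correlated between a mouse's pads at -0.03 (C7), 0.17 (C34), 0.11 (C695), 0.36 (C75), 0.32 (C85) and 0.26 (C99), against at most 0.06 with another mouse. For C7 the value lay below its highest with another mouse, 0.06, so these correlations do not show its pairing. Floors are 3 reads. Software was R 4.3.3 with limma 3.58.1, and Python 3.11.15 with scipy 1.17.1, numpy 2.4.6, matplotlib 3.10.9 and pandas 2.3.3.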

Additional observations from a re-analysis of the deposited data

Results flagged for a closer look

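Art3 stood out because the KO effect differed between pads by a test of that difference. It was taken from the list of non-myelinating and repair Schwann cell genes, but Sox10 was at most 0.128 FPKM in epWAT. Whether Schwann cells were the source of Art3 was not tested. The level of Art3 was 63.7 to 91.3 FPKM in KO scWAT against 78.7 to 88.2 FPKM in WT scWAT, and 63.3 to 82.1 FPKM in KO epWAT against 30.4 to 38.2 FPKM in WT epWAT. The difference of effects was -1.07 ± 0.21 on the log2 scale (limma adjusted p = 0.0455). The call was lost with the mouse as a block (adjusted p = 0.0633), without the filter (0.0920) and without any of 9 single libraries (0.0744 to 0.118).

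Cnp stood out because all KO libraries were higher than all WT libraries in scWAT and lower in epWAT. Of all genes, 7.98% were higher without overlap in KO scWAT and 15.8% were lower in KO epWAT. The share with both patterns was not counted. In scWAT the closest values of Cnp were 8.05 FPKM in KO C7 and 7.84 FPKM in WT C75. Its difference of effects was 0.94 ± 0.27, and the limma test of that difference gave an adjusted p of 0.0899, which missed the threshold.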

How the results depend on the processing

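Of the log2 differences of the 7 genes under the alternatives, 414 moved by less than 1 SD and 24 by more. Among the further genes no call was reversed, with 77 results classed as the same, 29 as weaker and 1 as stronger. The number of genes called changed more. For KO against WT in epWAT, where none was called, the counts were 39 with a filter of 5 FPKM, 90 with quantile normalization, 1781 without KO C7 and the scWAT library of C695, and 0 to 1781 with 1 library left out, 1781 being without KO C7. In scWAT, 40 became 11 without a filter, 72 with the stricter filter, 22 with quantile normalization, 18 with limma-voom, 142 without KO C695 and 0 to 142 with 1 library left out. For the difference of effects, 139 (79 higher, 60 lower) became 23 without a filter, 211 (71 higher, 140 lower) with upper-quartile scaling, 1477 without both libraries and 0 to 928 with 1 left out. The WT pad comparison had 2852 calls (956 higher, 1896 lower), 3010 (1606 higher, 1404 lower) with upper-quartile scaling and 1272 to 2307 with 1 library left out. In KO mice, 90 became 44 without a filter, 55 with the stricter filter, 6 without both libraries and 7 to 36 with 1 left out. The causes were not tested. With the mouse as a replicate block, the pairing gave 0 calls for the difference of effects, 3806 between pads in WT mice and 12 in KO mice, and among the further genes it changed the calls of Art3 (difference of effects) and Nab2 (pads in WT mice, -0.73, limma adjusted p = 0.0128 with the block and 0.0558 without) and no other. Planned limma-voom with TMM scaling was not run. Depth limits Sox10 in epWAT.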
